A study of Caenorhabditis elegans with 3 samples.

Results

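DRAP-1 of Caenorhabditis elegans was mapped on chromatin in 3 biological replicates of mixed-stage embryos, and the regions described here are those on chromosome X that lie away from the starts of genes. A candidate region was taken when its summit, the base of highest signal, was on X and more than 500 bp from the 5′ end of every annotated gene of any biotype. The rule held for 3084 of the 30000 candidate regions of the pooled reads, a list that holds peaks and background together. It also held for 106 of the 1468 regions that passed the irreproducible discovery rate (IDR) threshold. That procedure keeps regions whose ranks repeat between replicates. The 106 are called IDR members and the remaining 2978 other members. Other members are thus candidates and not called binding sites, and how many of them are background was not determined. IDR members made up 3.44% of the members (95% Clopper-Pearson interval 2.82 to 4.14), against 4.89% of all pooled candidates. In the pooled list all 1468 IDR regions have the highest signal, so membership was set by signal in effect.

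All 3 replicates, numbered 2, 3 and 4, came from strain OP700, which carries the transgene wgIs700 (drap-1::TY1 EGFP 3xFLAG with unc-119(+)) in an unc-119(tm4063) background. Embryos of mixed sex were obtained by egg bleaching, with a labelled age of 3 hours, and the tagged protein was precipitated with an antibody against GFP, per the sample descriptions. What was measured is therefore the tagged product of an added gene copy in whole embryos, with all cell types mixed. No comparison group was analysed here, so comparisons are between regions and are tested over the 3 replicate lists, where an exact sign-flip permutation test cannot give a two-sided p below 0.25. Read depth is unknown, as no read counts are in the lists, and intervals cover the counting of regions only.

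DRAP-1 is the nematode relative of the alpha subunit of negative cofactor 2 (NC2), a dimer of histone-fold proteins that sits on the TATA-binding protein and is best known for holding back, and at some genes helping, the start of transcription. Promoters are therefore the usual place to look for it, and the regions described here are the ones on X that the annotation does not place at a gene start. The worm X chromosome is also the target of dosage compensation: in XX hermaphrodites a condensin-like complex loads at recruitment sites on X that hold a GC-rich motif, spreads along the chromosome and lowers its transcription. The overlap of the regions here with published recruitment sites was not tested.

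The sequences at the strongest members are shown first because several of them share an 8-base sequence. Each gives the plus strand of build ce11 (WBcel235, genome sequence from RefSeq) from 100 bp before the summit to 100 bp after it, for the 3 IDR members of highest signal outside coding genes, the 3 highest in introns and the highest in an exon. Capitals mark GCGCAGGG, the core of the X recruitment motif, or its reverse complement CCCTGCGC. The regions are chrX:11094115-11094315 between W04G3.11 and W02H3.3, chrX:14525793-14525993 between nspc-17 and nspc-18, chrX:4209164-4209364 between F20B6.9 and hpk-1, chrX:6296427-6296627 in an intron of mom-1, chrX:2996967-2997167 in an intron of Y41G9A.17, chrX:1302333-1302533 in an intron of inso-1, and chrX:5429443-5429643 at a coding exon of pks-1.
beside W02H3.3: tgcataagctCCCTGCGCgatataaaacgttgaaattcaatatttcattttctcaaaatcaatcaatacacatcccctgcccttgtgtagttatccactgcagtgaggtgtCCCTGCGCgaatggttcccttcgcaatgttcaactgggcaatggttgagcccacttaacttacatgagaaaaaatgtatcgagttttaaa
beside nspc-17: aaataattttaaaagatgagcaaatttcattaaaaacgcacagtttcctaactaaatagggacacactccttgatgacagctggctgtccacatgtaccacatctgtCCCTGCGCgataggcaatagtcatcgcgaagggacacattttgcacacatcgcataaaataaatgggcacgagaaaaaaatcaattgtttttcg
beside F20B6.9: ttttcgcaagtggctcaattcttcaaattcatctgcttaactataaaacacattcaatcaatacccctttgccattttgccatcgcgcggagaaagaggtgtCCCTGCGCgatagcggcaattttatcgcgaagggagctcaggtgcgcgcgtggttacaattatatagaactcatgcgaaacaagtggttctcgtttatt
mom-1 intron: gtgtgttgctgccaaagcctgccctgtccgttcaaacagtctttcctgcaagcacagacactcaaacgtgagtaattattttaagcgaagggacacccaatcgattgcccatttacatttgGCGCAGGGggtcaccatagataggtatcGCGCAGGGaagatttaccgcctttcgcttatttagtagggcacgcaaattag
Y41G9A.17 intron: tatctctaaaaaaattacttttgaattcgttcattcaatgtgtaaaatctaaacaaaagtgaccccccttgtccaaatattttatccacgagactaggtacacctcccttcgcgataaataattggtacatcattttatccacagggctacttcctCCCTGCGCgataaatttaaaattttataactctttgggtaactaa
inso-1 intron: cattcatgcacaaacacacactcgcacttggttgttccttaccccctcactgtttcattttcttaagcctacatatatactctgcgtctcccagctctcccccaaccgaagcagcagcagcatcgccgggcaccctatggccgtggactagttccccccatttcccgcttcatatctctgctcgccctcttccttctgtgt
pks-1 exon: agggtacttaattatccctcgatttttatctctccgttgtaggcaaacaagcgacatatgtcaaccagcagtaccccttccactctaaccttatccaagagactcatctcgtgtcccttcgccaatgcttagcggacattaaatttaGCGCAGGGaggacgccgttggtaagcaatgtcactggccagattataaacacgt
The sequences beside W02H3.3 and in mom-1 each hold the consensus 2 times, inso-1 holds none in this window, and the remaining 4 hold it 1 time each.

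The consensus was then sought within 50 bp of every summit, on both strands. It lay at 9 of the 106 IDR members (8.49%, 95% interval 3.96 to 15.5) and at 1 of the 2978 other members (0.0336%), against 29 of all 30000 pooled candidates. Below are the 10 matches, each as 40 bases oriented so that the consensus, in capitals, reads forward, which lets the bases beside it be compared. Their positions are chrX:11094210-11094249 (minus strand), chrX:6296532-6296571 (plus), chrX:14525884-14525923 (minus), chrX:4209250-4209289 (minus), chrX:806658-806697 (plus), chrX:1345040-1345079 (plus), chrX:1837876-1837915 (plus), chrX:4395599-4395638 (plus), chrX:2997282-2997321 (minus) and, for the other member, chrX:13514542-13514581 (plus).
beside W02H3.3: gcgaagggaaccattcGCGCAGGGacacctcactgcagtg
mom-1 intron: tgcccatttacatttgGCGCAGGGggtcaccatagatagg
beside nspc-17: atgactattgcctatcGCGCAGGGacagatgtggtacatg
beside F20B6.9: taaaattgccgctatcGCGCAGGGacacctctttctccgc
beside gtr-1: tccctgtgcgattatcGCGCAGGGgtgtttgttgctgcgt
beside ins-39: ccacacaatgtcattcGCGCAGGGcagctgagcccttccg
beside T26C11.2: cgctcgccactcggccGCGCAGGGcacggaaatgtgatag
beside dpy-23: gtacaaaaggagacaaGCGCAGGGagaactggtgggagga
Y41G9A.17 intron, second region: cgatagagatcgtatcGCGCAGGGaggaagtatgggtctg
beside col-185, other member: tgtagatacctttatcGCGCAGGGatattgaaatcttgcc
The centre of the consensus lay 5 bp from the summit beside F20B6.9, the nearest of the 10, and 41 bp from it beside dpy-23, the farthest.

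The members with the consensus were among the strongest on X away from 5′ ends. The region beside W02H3.3, between 2 coding genes whose ends converge and 1458 bp upstream of the tRNA gene W02H3.t1, had the highest pooled signal of all 3084 members, 645.5, and ranked 139, 17 and 19 among the 30000 regions of replicates 2, 3 and 4. Next was the intron of mom-1, which encodes a Porcupine-like acyltransferase needed to make Wnt ligands, with a pooled signal of 619.3 and ranks of 95, 25 and 37. The region upstream of nspc-17, a member of a nematode-specific peptide family, had 549.4 and ranks of 170, 27 and 70. These 3 stood within the 170 highest regions of each whole replicate list, and each had its poorest rank in replicate 2.

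The region upstream of F20B6.9 had a pooled signal of 542.0 and ranks of 110, 62 and 45 in replicates 2, 3 and 4. The region listed beside gtr-1 lay between the converging 3′ ends of gtr-1 and F25E2.2, 2421 and 301 bp from the summit. Its signal was 469.7 and its ranks were 138, 93 and 74. For ins-39, which encodes an insulin-like peptide, the upstream region had 323.8 and ranks of 276, 261 and 141. All 6 regions described so far were thus high in every replicate, whereas the remaining matches were spread more widely. The region near T26C11.2 lay in the annotated pseudogene T26C11.3, 559 bp from its 5′ end, with a signal of 257.1 and ranks of 327, 746 and 249. Beside dpy-23, which encodes a subunit of the AP-2 clathrin adaptor, the signal was 185.5 and the ranks were 2017, 814 and 344. The second region in Y41G9A.17, which overlaps the first, had 170.0 and ranks of 1477, 625 and 13824. The 1 other member with the consensus, near the cuticle collagen gene col-185, had 92.4 and ranks of 11318, 9220 and 2994, all outside the 1468 highest. Because signal decides which regions are IDR members, these ranks describe the members and are not tested.

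In the single replicate lists the consensus was also concentrated at high-ranked regions. The pooled list comes from the reads of these same replicates, so this is not independent of the pooled counts. High-ranked here means among the 1468 highest of a replicate's list, as many as the IDR list holds. On X away from 5′ ends, 7 of 95 high-ranked regions held the consensus in replicate 2, 10 of 105 in replicate 3 and 10 of 109 in replicate 4, and 7, 0 and 6 of the lower-ranked regions did. As shares these were 7.37% against 0.256%, 9.52% against 0% and 9.17% against 0.180%. The high-ranked share was above the lower-ranked share in 3 of 3 replicates (exact sign-flip permutation test, two-sided, p = 0.25, the smallest possible).

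Among IDR regions away from 5′ ends the consensus was found on X and not on the autosomes. Of the 310 autosomal IDR regions away from 5′ ends none held it (interval 0 to 1.18%), and 6 of the 16321 other autosomal ones did. In high-ranked replicate regions the share was 8.69% ± 1.16 on X and 0.178% ± 0.155 on the autosomes (SD, n = 3), higher on X in 3 of 3 replicates (exact p = 0.25). Within 500 bp of a 5′ end it was on both, at 2 of 247 X IDR regions (0.810%) and 2 of 805 autosomal ones (0.248%). The letters themselves were also more frequent on X, with 81 occurrences (4.57 per Mb) against 233 on the autosomes (2.82 per Mb). Of the 54 occurrences on X away from 5′ ends, 10 had their centre within 50 bp of an IDR summit (18.5%, interval 9.25 to 31.4), and of the 140 on the autosomes none did. The 10 are those of the 9 IDR members and the one at pks-1, whose centre but not its full length is within 50 bp. Most occurrences of these 8 letters on X were therefore not at an IDR region.

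A relaxed search, chosen after the exact matches had been seen, allowed at most 1 base to differ. It took in 23 of the 106 IDR members (21.7%), 111 of the 2978 other members (3.73%) and 25 of the 310 autosomal IDR regions away from 5′ ends (8.06%). Within 500 bp of 5′ ends it took in 82 of 805 autosomal IDR regions (10.2%) and 16 of 247 on X (6.48%). Of all pooled candidates 3.79% were taken in, so the relaxed match was not confined to X. One substitution stood out in number, C4A, with positions counted from 1 at the 5′ end of the consensus. It lay at 10 of the 106 IDR members (9.43%), 5 of the 2978 other members (0.168%) and 0 of the 310 autosomal ones. Both forms occurred together at 4 IDR members, those beside W02H3.3, in mom-1, beside nspc-17 and beside F20B6.9, and 15 IDR members held at least 1 of them. The C4A form is in lower case in the sequences above, for example in the exon of pks-1 and the first Y41G9A.17 region.

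**Figure D1:**
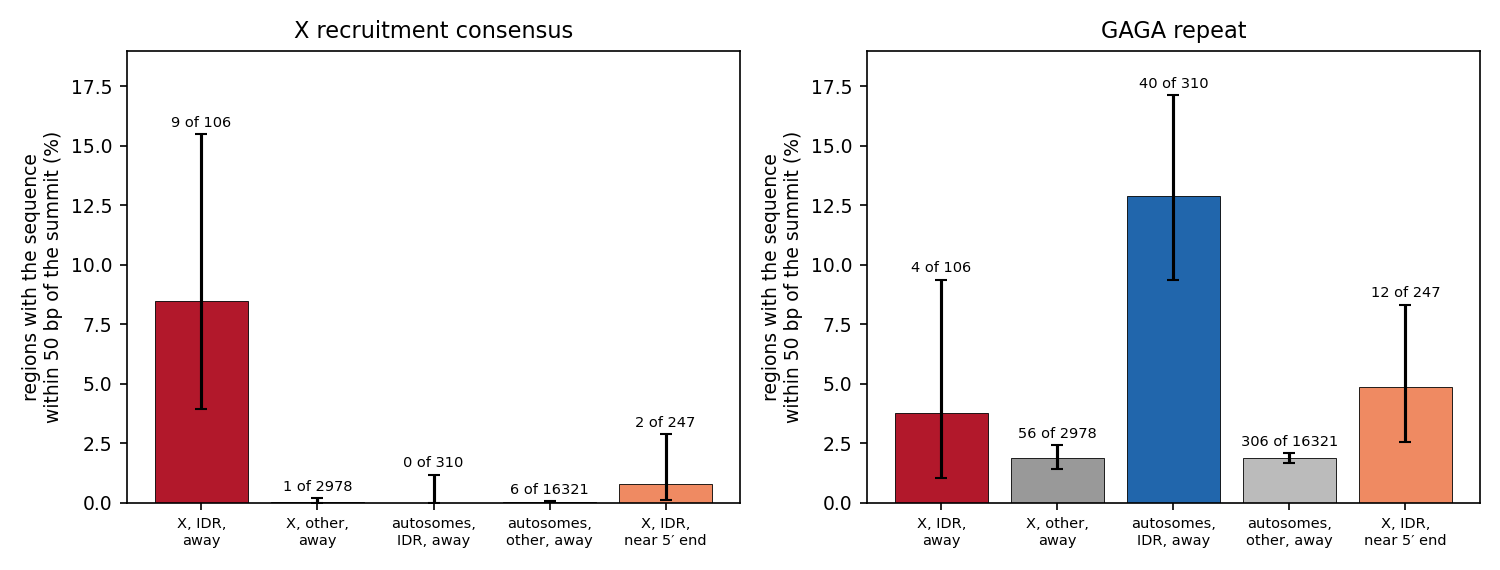
Share of regions (%) with the X recruitment consensus (left) or a GAGA repeat (right) within 50 bp of the summit, in 5 sets of pooled regions; bars are shares, whiskers 95% Clopper-Pearson intervals, and numbers the regions with a match of the regions in the set. The recruitment consensus is at 9 of 106 X IDR members and 0 of 310 autosomal IDR regions away from 5′ ends, and the GAGA repeat is at 4 and 40 of the same sets.

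Of the other 7 sequences searched, none was within 50 bp of more than 4 IDR summits. The GAGA repeat, GAGAGAGA, was at 4 of the 106 IDR members (3.77%) and 56 of the 2978 other members (1.88%), and at 40 of the 310 autosomal IDR regions away from 5′ ends (12.9%). In high-ranked replicate regions its share was 4.16% ± 1.21 on X and 11.1% ± 1.86 on the autosomes (SD, n = 3), lower on X in 3 of 3 replicates (exact sign-flip p = 0.25). Within 500 bp of 5′ ends the repeat was at 4.86% of X IDR regions and 4.22% of autosomal ones, near the share of the IDR members. Of all pooled candidates 2.29% held it. The 4 IDR members with it were 2 at alg-1, which encodes a microRNA Argonaute, and 1 each at adm-2 and B0302.2. TATAAA, the core of the TATA box, was at 1 IDR member and 134 other members (4.50%). In the replicate lists it was at 2.27% ± 0.530 of the high-ranked and 6.43% ± 0.521 of the lower-ranked regions. Both sequences depended on the window: within 100 bp of the summit, TATAAA was at 9 IDR members (8.49%) and 10.7% of the others, and the GAGA repeat at 10 (9.43%) and 3.29%.

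The GATA-factor sequence TGATAA was at 3 IDR members (2.83%) and at 6.75% of the others. A run of 8 T was at 1 and 113, the AP-1 sequence TGACTCA at 2 and 35, and the E box CACGTG at 4 and 62. The B box of tRNA promoters, written GTTCGANNC with N for any base, was at 1 IDR member and 17 other members, while 31 of the 247 X IDR regions within 500 bp of a 5′ end held it (12.6%). A missing match says only that the letters are not in this window.

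IDR members lay mainly outside coding genes and almost never in exons. Of the 106, 77 summits were outside coding genes (72.6%, interval 63.1 to 80.9), 26 were in introns (24.5%, 16.7 to 33.8) and 3 were in exons (2.83%, 0.588 to 8.05). Of the 2978 other members, 873 were outside coding genes (29.3%, 27.7 to 31.0), 933 in introns (31.3%, 29.7 to 33.0) and 1172 in exons (39.4%, 37.6 to 41.1). The sequence of X more than 500 bp from 5′ ends, 13031501 bp in all, was 41.9% outside coding genes, 32.4% intron and 25.7% exon. Other members were thus over the exonic share of the sequence and IDR members far under it.

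Read the other way, 8.11% of the members outside coding genes, 2.71% of those in introns and 0.255% of those in exons were in the IDR list. Counted per length, there were 14.1 IDR members per Mb outside coding genes, 6.16 per Mb of intron and 0.895 per Mb of exon, whereas all members numbered 174.0, 227.4 and 350.4 per Mb. The order of the 3 places was reversed between IDR members and members as a whole.

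The same difference was present in each replicate list. Of the high-ranked regions on X away from 5′ ends, 69.5%, 65.7% and 71.6% were outside coding genes in replicates 2, 3 and 4, against 34.7%, 29.4% and 28.9% of the lower-ranked ones. The difference was 37.9 ± 4.17 percentage points (SD, n = 3; exact sign-flip p = 0.25). For exons the shares were 5.26%, 5.71% and 2.75% against 32.2%, 42.7% and 42.5%, a difference of -34.5 ± 6.75 points (exact p = 0.25). Both differences had the same sign in 3 of 3 replicates and were larger than the spread between replicates. Introns gave 25.3%, 28.6% and 25.7% against 33.1%, 27.9% and 28.6%, with 1 of 3 replicates higher among high-ranked regions (exact p = 0.5). These differences depend on how many regions are called high-ranked. With the 734 highest of each list they were 46.7 points outside coding genes, -35.2 in exons and -11.6 in introns (exact p = 0.25 for each), and with the 2936 highest 24.3, -24.3 and -0.013 points (exact p = 0.25, 0.25 and 1). The directions outside coding genes and in exons held at all 3 numbers, and no intron difference was resolved.

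**Figure D2:**
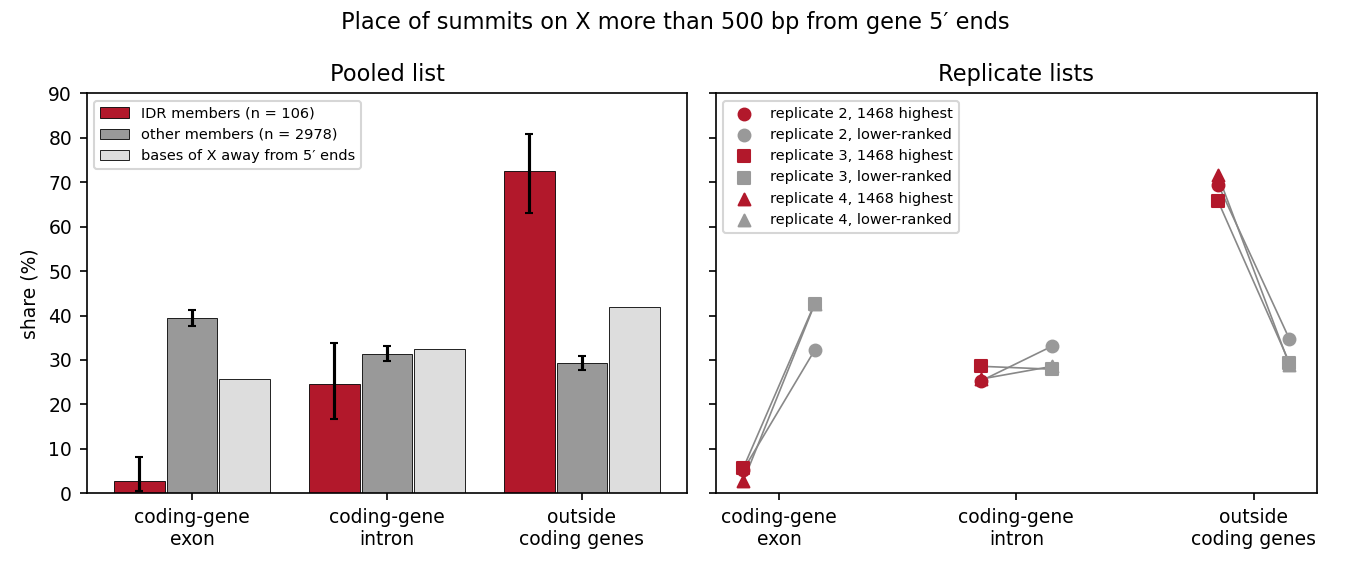
Share of summits (%) in exons, introns or outside coding genes, for X regions away from gene 5′ ends. Left, pooled list with 95% Clopper-Pearson whiskers and the share of X bases beside them; right, the 3 replicate lists, each line joining the high-ranked and lower-ranked regions of 1 replicate. IDR members are at 72.6% outside coding genes and 2.83% in exons, and in all 3 replicates the high-ranked points lie below the lower-ranked ones for exons and above them outside coding genes.

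The autosomes showed a shift in the same direction outside coding genes and in exons, but a different balance of the 3 places. Of 310 autosomal IDR regions away from 5′ ends, 160 were outside coding genes (51.6%), 121 in introns (39.0%) and 29 in exons (9.35%). Of the 16321 other autosomal regions away from 5′ ends, 24.97% were outside coding genes, 33.8% in introns and 41.2% in exons. The shares of these places in the autosomal sequence were not computed. Among high-ranked replicate regions, 68.9% ± 2.96 were outside coding genes on X and 43.7% ± 2.11 on the autosomes, with introns at 26.5% ± 1.80 and 38.9% ± 5.95 and exons at 4.58% ± 1.60 and 17.4% ± 4.15 (SD, n = 3). Each of these 3 differences had 1 direction in 3 of 3 replicates (exact p = 0.25). X regions away from 5′ ends were also in the IDR list more often than autosomal ones, 3.44% against 1.86% (310 of 16631, interval 1.66 to 2.08). In replicates 2, 3 and 4 the high-ranked share was 3.36%, 2.99% and 3.17% on X and 2.35%, 2.21% and 2.16% on the autosomes. The difference was 0.933 ± 0.133 percentage points and positive in 3 of 3 replicates (exact p = 0.25). Nearness to a 5′ end moved the share more: 12.4% of the X regions within 500 bp were in the IDR list, against 9.71% of the autosomal ones. Over all candidates the shares were 6.95% on X and 4.47% on the autosomes. The higher share on X was thus not particular to regions away from 5′ ends.

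Where IDR members lay outside coding genes, the arrangement of the flanking genes was close to that of the other members. The gap was flanked by divergent genes for 24 of 77 (31.2%), by genes in tandem for 45 (58.4%) and by convergent genes for 8 (10.4%), against 30.5%, 57.8% and 11.7% of the other members and 34.7%, 54.0% and 11.3% of the gap bases. Upstream of the nearest coding 5′ end were 60 of the 77 (77.9%) and 644 of the 873 others (73.8%). The median gap was 6082 bp for IDR members and 7123 bp for the others. In introns, the host gene's own start was the nearest 5′ end for 12 of 26 IDR members and 395 of 933 others.

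IDR members were somewhat nearer to gene starts and farther from gene ends. Their median distance from a 5′ end was 1443.5 bp (binomial interval 1190 to 1798) against 1658 bp (1593 to 1716) for other members, and 34 (32.1%) against 727 (24.4%) lay within 1000 bp. Replicate medians were 1488, 1385 and 1482 bp for high-ranked and 1630, 1630.5 and 1714 bp for lower-ranked regions in replicates 2, 3 and 4. The high-ranked median was the smaller in each. Only 4 IDR members (3.77%) were within 500 bp of a coding 3′ end, against 342 others (11.5%). Unlike gene starts, the starts of single transcripts were not used in the choice, and 7 IDR members (6.60%) and 208 others (6.98%) lay within 500 bp of one. The IDR members just outside the 500 bp limit were at 519 bp (F43B10.1), 526 bp (C33A11.2) and 528 bp (F40B5.2), with signals of 141.1, 161.6 and 141.8. Just inside it, X regions in the IDR list stood at 469 bp (F13C5.2), 472 bp (F46H5.2) and 476 bp (bet-2), with 194.4, 214.4 and 211.8.

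Nearest 5′ ends belonged to coding genes for 75 IDR members (70.8%) and 1841 others (61.8%). Genes of the annotation's ncRNA class were nearest for 20 (18.9%) and 871 (29.2%). Of the smaller classes, piRNA genes were nearest for 3 and 77, microRNA genes for 3 and 31, snoRNA genes for 3 and 23, and tRNA genes for 1 and 58. Coding genes were thus the commonest neighbour in both sets.

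The base composition at the summit differed. Median GC within 50 bp of the summit was 50.5% (interval 49.5 to 52.5) for IDR members and 44.6% (43.6 to 44.6) for others. Within introns the medians were 47.5% and 42.6%, and outside coding genes 51.5% and 43.6%, so the difference was there in each place with many members. High-ranked regions had medians of 52.5%, 51.5% and 50.5% in replicates 2, 3 and 4, against 42.6% for lower-ranked regions in each. Autosomal IDR regions away from 5′ ends were at 51.0%, close to the X value. Without the members that hold the recruitment consensus the medians were 51.5% and 44.6%. The part of base composition in the signal ranks was not tested.

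**Figure D3:**
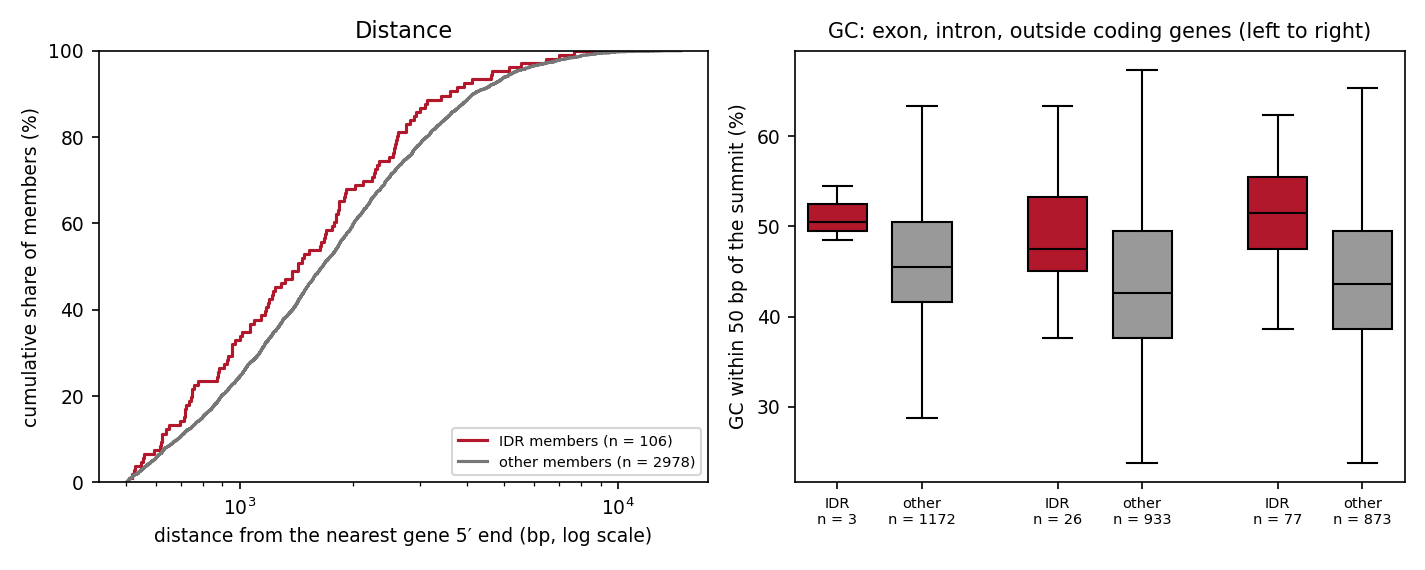
Left, cumulative share of members (%) by distance of the summit from the nearest gene 5′ end (bp, log axis), for 106 IDR members and 2978 other members. Right, GC (%) within 50 bp of the summit by place, with the median as a line, the quartiles as a box and whiskers to the last value within 1.5 box lengths. The IDR curve lies to the left, with medians of 1443.5 and 1658 bp, and IDR medians of GC are above the others in each place.

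Pooled signal, whose scale is not stated, ran from 126.7 to 645.5 with a median of 169.98 in IDR members and from 31.8 to 125.3 with a median of 46.5 in others. The usual width of the pooled list, 424 bp, was that of 84 IDR members (79.2%) and 2976 others (99.9%). All of the 17 strongest IDR members were narrower than this. Narrow calls also occurred lower down, at members 21, 23, 42, 49 and 53, and the narrowest of the 106, at 111 bp, was member 49, beside ain-1. Width therefore did not follow the order of signal throughout.

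Replicates found nearly all IDR members, but ranked many of them lower than the pooled list did. With summits matched within 100 bp, 102, 104 and 103 of 106 were found among the 30000 regions of replicates 2, 3 and 4, and 98 in all 3. Among the 1468 highest of each list, 67, 79 and 78 were found, 40 of them in all 3 and 2 in none. Median ranks were 911, 805.5 and 787, with the best at 80, 17 and 19 and the worst at 22853, 7252 and 22224. Of the 2978 others, 46.5%, 49.2% and 42.2% were also matched in replicates 2, 3 and 4. These lists hold background too, so a match alone need not mark a peak. In all 3 lists 273 of the others were found. Among the 1468 highest none of them was in all 3 and 1 was in 2. Members missed in a list included those at apa-2, the AP-2 alpha subunit gene, at the profilin genes pfn-2 and pfn-3, and at act-4, an actin gene, which were named after their values had been seen. The one at pqn-39 was matched in replicate 2 only.

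Agreement fell with pooled rank, which describes the members and was not tested. Pooled signal comes from the same reads, and 1468 is also the length of the IDR list. Members near that limit therefore fall outside it more readily in single replicates. All 15 strongest members were among the 1468 highest of every replicate, as were 23 of members 16 to 50 and 2 of members 51 to 106. Intron summits became commoner down the list, with 2 of 15, 6 of 35 and 18 of 56. The recruitment consensus was at 5, 3 and 1 of these members, and the sequence with at most 1 base different at 11, 6 and 6. Outside coding genes lay 12, 28 and 37 of them.

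**Figure D4:**
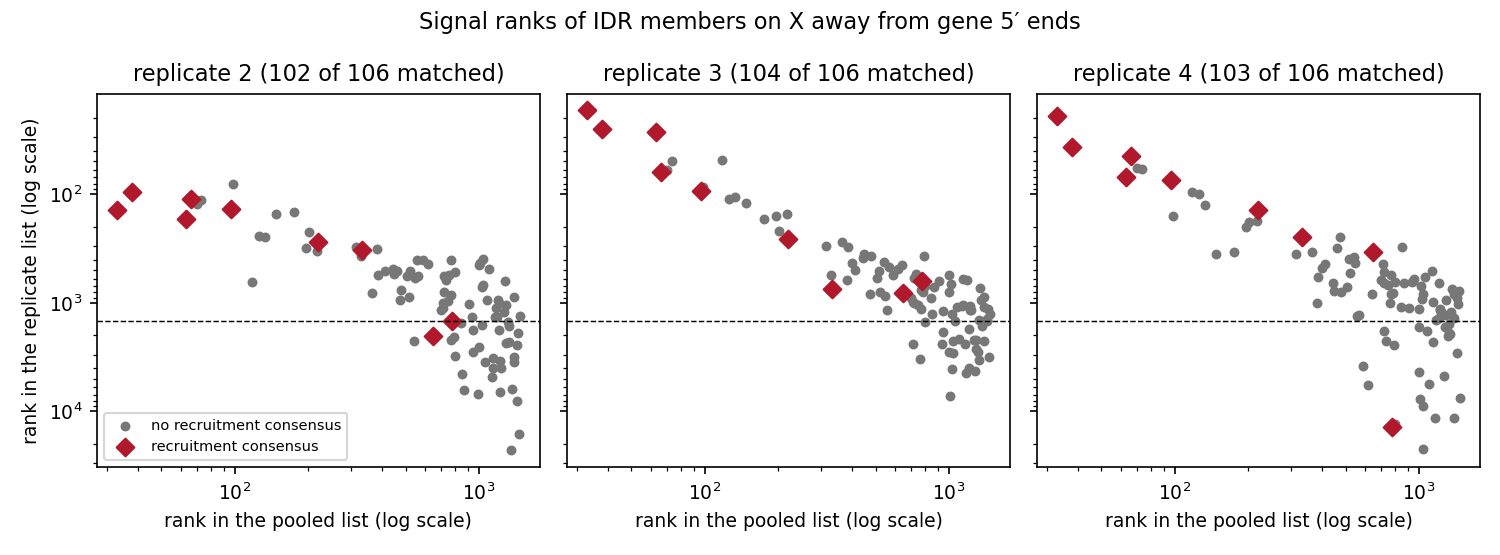
Rank of each IDR member in the 3 replicate lists (vertical, log axis, best at the top) against its rank in the pooled list (horizontal, log axis), for members matched within 100 bp; diamonds hold the recruitment consensus and the dashed line is rank 1468. Most members with the consensus lie toward the upper left, those beside dpy-23 and in the second Y41G9A.17 region lie to the right and partly below the line, and 67, 79 and 78 members lie above the line in replicates 2, 3 and 4.

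Beyond the consensus holders already given, the 15 strongest members lay at genes of varied kinds. The region at a coding exon of pks-1, a polyketide synthase gene, was 10016 bp from the nearest 5′ end, the farthest of all IDR members, with a signal of 527.7 and ranks of 113, 50 and 59 in replicates 2, 3 and 4. Between dot-1.4 and F55G7.5 the signal was 530.9 and the ranks were 123, 60 and 58. Upstream of spc-1, which encodes alpha spectrin, it was 467.1 with ranks of 80, 86 and 159. These were high in all replicates without an exact consensus within 50 bp. The region between adm-2 and K02D3.1 had 435.4 and ranks of 646, 49 and 96, so replicate 2 placed it well below the others. The first region in Y41G9A.17 had 416.5 and ranks of 242, 110 and 99, and the one beside F22H10.2 had 406.9 and ranks of 246, 107 and 127.

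Upstream of ain-1, a GW182-family gene of the microRNA pathway, the signal was 383.0 and the ranks were 154, 120 and 355. For sms-2, which encodes a sphingomyelin synthase, the upstream region had 354.2 and ranks of 145, 169 and 339. Upstream of hda-4, a class II histone deacetylase gene, the signal was 336.9 and the ranks were 312, 159 and 202, and upstream of fbxb-58, an F-box gene, 335.2 with ranks of 224, 217 and 181. All 4 ranked within the 355 highest of every replicate.

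In introns, the strongest after mom-1 and Y41G9A.17 were in inso-1 (signal 257.4; ranks 368, 552 and 258), in pqn-65 (219.7) and in T18D3.9 (207.7; ranks 508, 797 and 535). The pqn-65 region was unmatched in replicate 3 and ranked 511 and 315 in the other lists. The other exon summits were at tbc-7 (237.1), 7 bp from the start of one of its transcripts, and at alg-1 (135.2). After pks-1, the IDR members farthest from a gene 5′ end were 7634 bp upstream of nhr-71 and in an intron of R03G5.6, 7004 bp from sek-1. The R03G5.6 region was, however, 596 bp from the start of a single transcript. At the threshold, the lowest IDR member was 1290 bp upstream of pkn-1, a protein kinase N gene, with 126.7 and ranks of 1332, 1256 and 7572. The highest other member, near T24F3.1, had 125.3 and ranks of 1521, 3066 and 2451, so values were close across the limit.

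The poorest rank of an IDR member in any replicate was 22853, and some other members stayed far better than this in every replicate. The one 1660 bp upstream of jmjd-3.1, a histone demethylase gene, had a signal of 117.7 and ranks of 2174, 1283 and 1566. Upstream of linc-22 the signal was 115.4, in an intron of swip-10 it was 119.8, and upstream of pqn-15 it was 114.4, and none of the 3 ranked below 3064 in any replicate.

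Neighbouring genes were counted in 7 lists of symbols, which are partial and do not cover their families. A gene was counted for a member when it held the summit, or else had the nearest coding 5′ end, and the counts stand beside the 3.44% of all members that are IDR members. Of 75 members at listed nuclear hormone receptor genes 5 were IDR members (6.67%), at nhr-48, nhr-3, nhr-71, nhr-17 and daf-12, the last a receptor for steroid hormones that control larval development. Of 48 at the other transcription factor genes listed 1 was, at hlh-29. None was among 26 at listed homeobox genes, 66 at listed ion channel and transmitter receptor genes, 80 at listed adhesion and guidance genes and 19 at listed basement membrane genes. These counts are small and were not tested, and no list is set apart by them. Genes of these kinds outside the lists, named after their values had been seen, also had IDR members: the potassium channel gene kqt-1, with a signal of 151.9, and the transcription factor genes cebp-1 (224.7), myrf-2 (174.3), sma-9 (170.9), hbl-1 (155.8) and egrh-1 (138.1). The 1 of 36 in the cuticle collagen list was dpy-23, which shares the dpy name and is no collagen gene. Median signals of the 7 lists were 41.8 to 49.6, against 47.2 over all members.

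No gene had 3 IDR members, and 7 had 2: F09C8.2, Y41G9A.17, ain-1, nck-1, madd-3, alg-1 and pdk-1. Both ain-1 and alg-1 act in microRNA silencing, while nck-1 encodes an adaptor protein and pdk-1 a kinase of insulin signalling. The pairs at ain-1 and Y41G9A.17 had summits under 500 bp apart.

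IDR members were found along the whole of X, from position 601521 to 17610602. In 9 consecutive windows of 2 Mb from the left end there were 19, 9, 13, 7, 7, 10, 12, 12 and 17 of them, with 363, 419, 345, 278, 300, 311, 304, 387 and 377 members in all. The share was highest in the first window at 5.23% (interval 3.18 to 8.05) and lowest in the second at 2.15% (0.987 to 4.04), and these intervals overlap. Per Mb away from 5′ ends there were 12.1 IDR members in the first window, 12.5 in the last and 4.80 to 9.04 in those between. High-ranked regions numbered 17, 21 and 17 in the first window in replicates 2, 3 and 4, and 8, 8 and 6 in the fifth. The median gap between neighbouring IDR summits was 109544 bp, and the largest, between 12693358 and 13584158, was 890800 bp.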

How the data were processed

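The data are ChIP-seq region lists for DRAP-1 from 3 replicates of 1 group. Per the deposited README texts, the authors made a list of 30000 regions of peaks and background per replicate, each from 1 replicate's reads with 2 control files, a list of 30000 from the pooled alignments, and an IDR-thresholded list of 1468, all on ce11. The signal column is as deposited by the authors; its scale is not stated, so values are set side by side only within a list and never across lists. Which caller and IDR threshold were used, and what the controls were, is not given in the sources used here. Labels call the samples biological replicates, and p-values rest on these 3. Where all 3 differences share a sign the test gives 0.25, whatever their size or spread.

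Summits were read as the start plus the deposited summit offset, and coordinates are 1-based. Gene models were Ensembl release 115 of WBcel235, which is the same assembly as ce11, and no region ran past the end of a chromosome. A summit was placed in an exon of any coding gene first, untranslated parts included, then in an intron, and otherwise outside coding genes. Replicate lists were compared at 1468 highest regions each, with summits matched within 100 bp. The RefSeq genome sequence within 50 bp of summits was searched on both strands for 8 consensus sequences. Shares have exact Clopper-Pearson intervals, medians have binomial order-statistic intervals, and differences were tested with an exact two-sided sign-flip permutation test over the 3 replicates. The steps were tested on simulated data. Python 3.11.15, pandas 2.3.3, numpy 2.4.6, scipy 1.17.1 and matplotlib 3.10.9 were used.

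The members, gene lists and sequences were chosen with earlier results of these data known. Named regions were the 15 IDR members of highest signal, the 5 highest in introns and the highest in exons, the 3 farthest from a 5′ end, the lowest IDR and highest other member, up to 5 other members with the best worst rank, and genes with 3 or more IDR members. Regions beyond that rule are the holders of the recruitment consensus, the exon members, the genes with 2 members, the list genes and those said to be named after their values had been seen. Alternatives covered the distance limit, the set of 5′ ends, the comparison members, the match distance, how many regions of each replicate were used, the search window and leaving out each replicate.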

Additional observations from a re-analysis of the deposited data

How the results depend on the processing

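Of 98 recomputed values, 68 stayed within the replicate SD or interval of the main value, or for a count within 1.5 times it, 30 moved further and 0 changed direction. With the 734 highest regions of each replicate called high-ranked, the differences were 46.7 points outside coding genes and -11.6 in introns, and with the 2936 highest they were 24.3 points outside coding genes and -24.3 in exons. With only the 5′ ends of coding genes counted, the share of members in the IDR list was 6.04%, since regions at noncoding gene starts then enter, and the median distances were 2218 bp for IDR and 2438 bp for other members. With the starts of every transcript the other members' median was 1473 bp, and against the 106 lowest-signal members it was 1827 bp. The exon share of other members was 37.5% at a limit of 250 bp, 41.4% at 1000 bp, 32.4% with coding genes only and 50% in the lowest-signal members. Their share outside coding genes was 32.1%, 26.2%, 35.0% and 24.5% under the same settings and 31.5% with transcript starts, and their intron share was 29.6% with transcript starts and 25.5% in the lowest-signal members. IDR members found in every replicate numbered 51 with summits within 50 bp, 40 among the 1468 highest and 62 among the 2936 highest, and 99 to 102 when 1 replicate was left out. Allowing 1 base to differ raised the share of IDR members with the recruitment consensus to 21.7%, a setting chosen after seeing the data. A window of 25 bp gave 5.66% and one of 100 bp 11.3%. Within 100 bp a run of 8 T was at 5.66% of IDR and 9.67% of other members. Tests were paired within replicate lists, and with 1 group there was no pairing across groups. With 3 replicates no p can fall below 0.25, and unknown read depth limits what an absent match in a replicate list can show.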

Other observations

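The bases before the recruitment consensus also differed between places. The pair TC stood directly before it at 6 of the 10 occurrences on X near an IDR summit away from 5′ ends (60%, 95% interval 26.2 to 87.8), at 10 of the 44 other occurrences on X away from 5′ ends (22.7%, 11.5 to 37.8) and at 4 of 140 on the autosomes (2.86%, 0.784 to 7.15). This comparison was chosen after the sequences had been seen and has no test.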
